A study of Mus musculus with 8 samples.

Results

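TRIM (tripartite motif) proteins carry a RING domain, B-box zinc fingers and a coiled coil in that order, and the RING makes most of them E3 ubiquitin ligases. What follows the coiled coil sorts them into classes: a SPRY domain in the members that bind viral capsids, antibodies or signalling proteins, a PHD finger and bromodomain in the members that act on chromatin, NHL repeats in others. Many SPRY members are induced by interferon and act in antiviral sensing, while several others are known from epithelial and cytoskeletal biology. The family was taken as every gene of the deposited count table whose symbol starts with Trim and a digit, 68 of 24537 genes, and 46 of these had at least 80 counts summed over the 8 libraries. Of the other 22, 4 had no count at all. Just inside this limit were Trim30b, Trim40 and Trim67 with 80 counts each, and just outside it Trim72 with 74. The genes Pml, Mid1 and Mid2 encode TRIM proteins under other symbols and are described separately.

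RNA was sequenced from EpCAM+ cells sorted from pancreatic tumours of FVB/NJ mice that carried Tp53f/f together with Rosa26LSL-Luc and Pdx1-Cre, among other engineered alleles, so that Cre made in the pancreatic lineage deletes p53 and switches on luciferase. Both arms have the same genotype. Treatment began at 42 to 43 days of age and tumours were taken on day 6, at about 48 days. All 8 mice were dosed with gemcitabine, 50 mg/kg on day 1 and again on day 4. Antibody injections of 25 mg/kg fell on day 1, day 3 and day 5: control IgG in 4 mice and a monoclonal antibody against LIF, a cytokine of the interleukin-6 family, in the other 4. Libraries are named by arm and mouse number: IgG-203, IgG-343, IgG-345 and IgG-393 for control IgG, and anti-LIF-227, anti-LIF-310, anti-LIF-354 and anti-LIF-391 for anti-LIF, in which order the values of each gene are given below. Each library comes from the tumour of 1 mouse. No arm lacked gemcitabine, so every difference is one between antibodies on a background of gemcitabine.

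Libraries held 15135457 to 18972281 counts in genes. All 16 epithelial markers checked were present, but markers of other cells were too, and several moved with the arm. The summed level of the epithelial list was 5737 to 6817 CPM (counts scaled to library size with TMM factors) with IgG and 2215 to 3758 with anti-LIF, and 14 of 16 members fell. Epcam, the sorting marker, had 561, 664, 595 and 479 CPM with IgG and 194, 326, 353 and 347 CPM with anti-LIF. The myeloid list stood at 14063 to 18631 CPM with IgG and 29423 to 55548 with anti-LIF, 15 of 20 members rose, and anti-LIF-227 held the highest value. Among them Adgre1, the macrophage marker F4/80, had 146, 152, 186 and 151 CPM against 577, 367, 322 and 414 CPM. Ptprc, the pan-leukocyte marker CD45, had 245, 319, 321 and 239 CPM against 505, 470, 579 and 488 CPM. The lymphoid list went from 30.9 to 57.1 CPM up to 80.8 to 108 CPM, with 5 of 11 tested members higher. The acinar list ranged from 352 to 1981 CPM with IgG and from 3108 to 16763 with anti-LIF, with 14 of 17 tested members higher and Amy2a5 at 0 counts. Fibroblast markers ranged from 257 to 904 and from 304 to 1026 CPM (1 of 12 higher), and endothelial markers from 59.5 to 98.7 and from 119 to 157 CPM (2 of 11 tested higher, 1 lower). These counts come from the test described below, in which 15.7% of all tested genes were higher and 16.5% lower. In these bulk samples fewer cells of a type and less RNA per cell cannot be told apart, and the part of each cell type in the TRIM values below was not tested.

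Of the 46 members, 42 had counts high enough for the test across all genes. Among them 10 rose with anti-LIF and 8 fell at an adjusted p under 0.05 (edgeR's quasi-likelihood test, Benjamini-Hochberg adjustment over 14711 genes), and 24 did not pass. In that comparison 32.2% of all tested genes were called, 15.7% as higher and 16.5% as lower, against 42.9% of the tested members, 23.8% as higher and 19% as lower. The median log2 fold change (anti-LIF minus IgG) was -0.06 over the members and -0.01 over all tested genes. The risers were Trim30a, Trim30d, Trim21, Trim14, Trim47, Trim36, Trim65, Trim12c, Trim8 and Trim26. Those that fell were Trim15, Trim2, Trim6, Trim16, Trim13, Trim39, Trim3 and Trim33. In all 10 risers every anti-LIF library lay above every IgG library, and in 7 of the 8 that fell every anti-LIF library lay below, the exception being Trim6. These members were picked by their calls in the same libraries, which makes such separation likely. Over all 42 tested members 10 were apart upward and 7 downward, against 17.6% and 18.2% of all tested genes. The summed level of the 46 members overlapped between the arms, at 1695 to 1797 CPM with IgG and 1699 to 1914 CPM with anti-LIF.

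**Figure D1:**
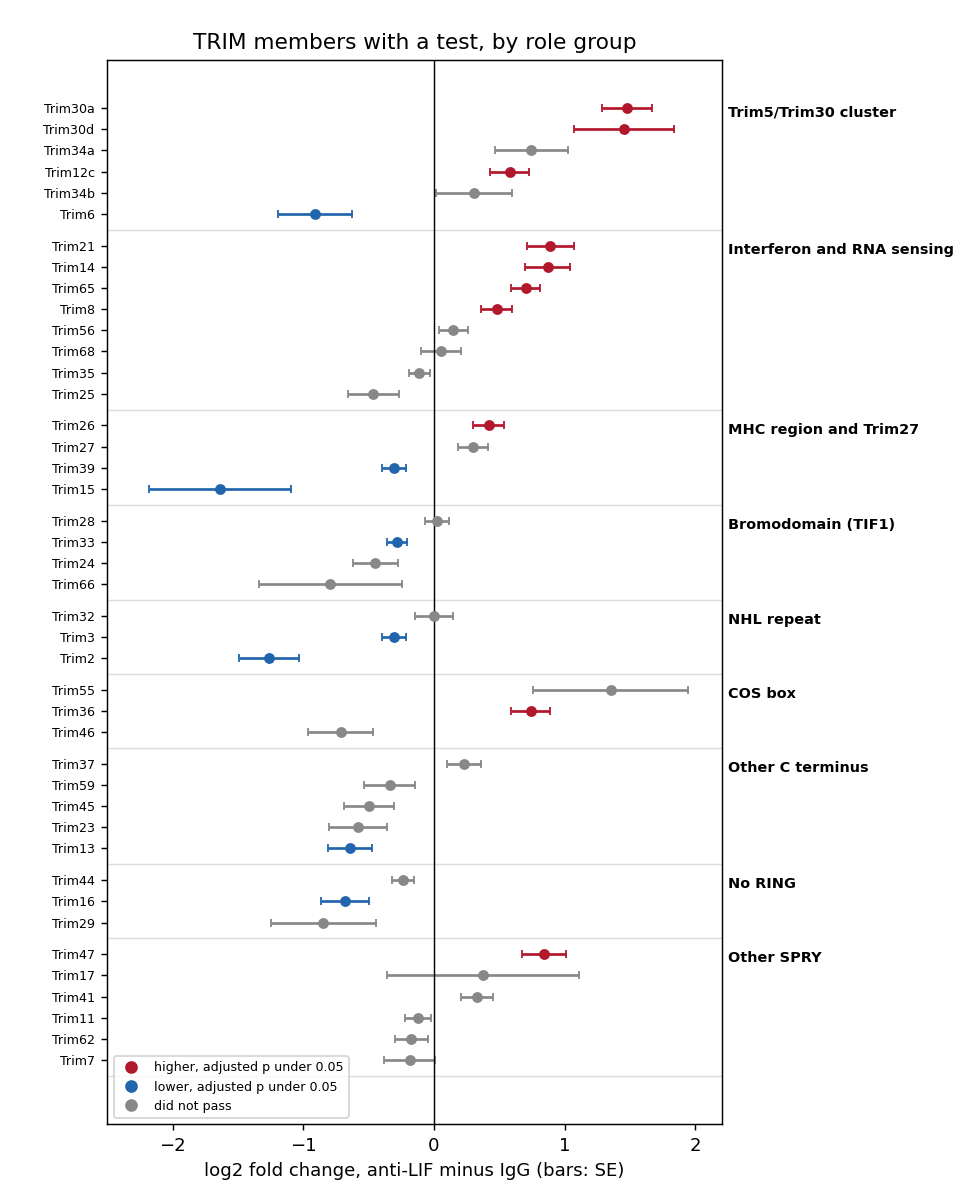
Log2 fold change (anti-LIF minus IgG, horizontal axis) of the 42 tested TRIM members, grouped by role, with bars for the standard error; red and blue points passed an adjusted p of 0.05 upward and downward, and grey points did not. Trim30a and Trim30d lie farthest to the right among the red points at 1.48 and 1.45, and Trim15 and Trim2 farthest to the left at -1.64 and -1.26.

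The calls were not equally firm. Across 17 other ways of running the comparison, 6 of the 10 risers (Trim30a, Trim21, Trim14, Trim47, Trim36 and Trim65) passed every time, and of the 8 that fell only Trim2 did. Of the 10 risers, 7 passed without IgG-343 or IgG-393, 9 without IgG-203, IgG-345 or anti-LIF-354, and all 10 without anti-LIF-227, anti-LIF-310 or anti-LIF-391. Of the 8 that fell, 5 passed without IgG-345 or anti-LIF-310, and 4 without IgG-203, IgG-393 or anti-LIF-391. Only 2 of the 8 passed without IgG-343, anti-LIF-227 or anti-LIF-354. Calls over all tested genes dropped in these fits as well. Genes called lower went from 2428 to 1507, 2062 and 1521, in that order. Genes called higher went from 2303 to 1467 without IgG-343 and to 1648 without IgG-393.

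**Figure D2:**
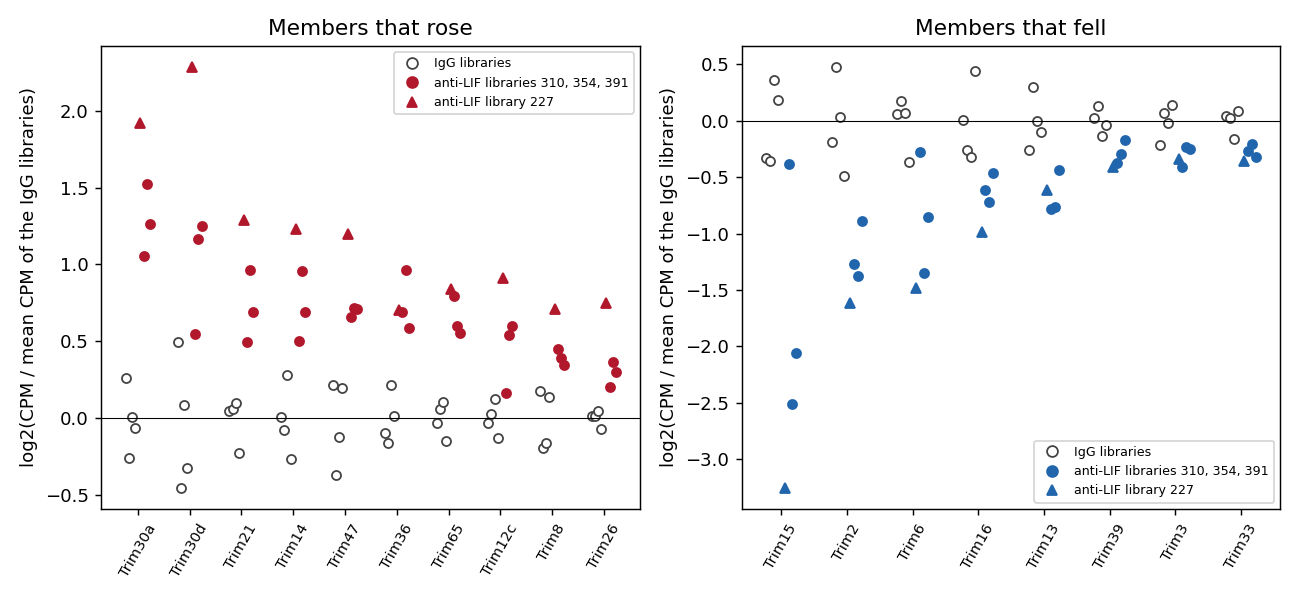
Level of each member that rose (left) or fell (right) in each of the 8 libraries, as log2 of its CPM over the mean CPM of the IgG libraries; open circles are IgG libraries, filled symbols anti-LIF libraries, and triangles mark anti-LIF-227. Library anti-LIF-227 is the highest of all 8 in 9 of the 10 members that rose and the lowest in 6 of the 8 that fell.

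The Trim5/Trim30 group is a cluster of SPRY-type genes on chromosome 7, related to the gene of the retroviral restriction factor TRIM5 and expanded in rodents. Of the 7 members of this group, 6 were tested, 3 rose, 1 fell and 2 did not pass. Over all tested genes 15.7% rose and 16.5% fell. The sum of the group went from 65.1 to 80.8 CPM with IgG up to 116 to 209 CPM with anti-LIF. Trim30a, an interferon-inducible inhibitor of Toll-like receptor signalling to NF-kB (chromosome 7, 104409026 to 104465193, mm10, minus strand), was the most abundant of them. Its level was 45.6, 31.9, 38.3 and 36.4 CPM in IgG-203, IgG-343, IgG-345 and IgG-393, and 144, 79.2, 109 and 91.2 CPM in anti-LIF-227, anti-LIF-310, anti-LIF-354 and anti-LIF-391. Every anti-LIF library was well above the highest IgG library, and library anti-LIF-227, which also has the highest myeloid sum, was the highest of all. The mean ± SD (n = 4 each) was 38.0 ± 5.75 CPM and 106 ± 28.1 CPM, a 2.78-fold rise (log2 fold change 1.48 ± 0.19 SE, adjusted p = 0.00317 in edgeR). Without library anti-LIF-227 the change was 1.30 (adjusted p = 0.0028).

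Trim30d, its neighbour 4.8 kb upstream (chromosome 7, 104470014 to 104507849), stood at 4.76, 2.47, 3.6 and 2.70 CPM with IgG and at 16.5, 4.94, 7.60 and 8.06 CPM with anti-LIF. The lowest anti-LIF library was just above the highest IgG library. It rose 2.74-fold (log2 fold change 1.45 ± 0.38 SE, the form used for the genes that follow, adjusted p = 0.0206), and without IgG-343 or IgG-393 it no longer passed (log2 fold changes of 1.33 to 1.36). Of all stretches of 50 bases in Trim30a transcripts, 5.98% also occur in Trim30d, and 6.39% of those in Trim30d occur in Trim30a. Mean levels were 38.0 and 106 CPM for Trim30a (IgG and anti-LIF) but 3.38 and 9.27 CPM for Trim30d. Trim30a reads from shared stretches, if counted for Trim30d, could therefore weigh on its values, and their part was not tested. Trim12c (chromosome 7, 104338754 to 104353349) is a rodent relative of TRIM5. It went from 21.1, 22.0, 23.4 and 19.7 CPM to 40.6, 24.1, 31.4 and 32.7 CPM, with anti-LIF-310 close to the IgG range. The rise was 1.49-fold (0.58 ± 0.15 SE, adjusted p = 0.0202) and did not pass without IgG-393 (0.54). Its transcripts share 33% of their 50-base stretches with other genes, mainly Trim5 and Trim12a, which had 12 and 0 counts over all libraries.

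Trim6, a ubiquitin ligase that makes unanchored chains in interferon signalling, lies at the edge of the same cluster (chromosome 7, 104218795 to 104235152) and went the other way. Its level was 5.56, 6.04, 5.62 and 4.16 CPM with IgG and 1.92, 4.41, 2.10 and 2.96 CPM with anti-LIF, and anti-LIF-310 overlapped the IgG range. It fell 1.88-fold (-0.91 ± 0.28 SE, adjusted p = 0.0368), a call lost without any of IgG-203, IgG-343 or IgG-345 or anti-LIF-227, anti-LIF-354 or anti-LIF-391 (log2 fold changes of -0.93 to -0.76). Trim34a, 9.3 kb away from Trim6, had 2.29, 1.26, 1.37 and 1.14 CPM with IgG and 3.19, 2.07, 2.47 and 2.42 with anti-LIF (0.74 ± 0.28 SE, adjusted p = 0.0685). IgG-203 was its only overlap. Without that library Trim34a passed at 1.01 (adjusted p = 0.0229), but not with any other library left out. Its near copy Trim34b, which shares 56.8% of its 50-base stretches with Trim34a, stood at 0.31 ± 0.29 SE (adjusted p = 0.448). Trim30b was too low to test, with 33 counts in IgG libraries together and 47 in anti-LIF libraries.

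**Figure D3:**
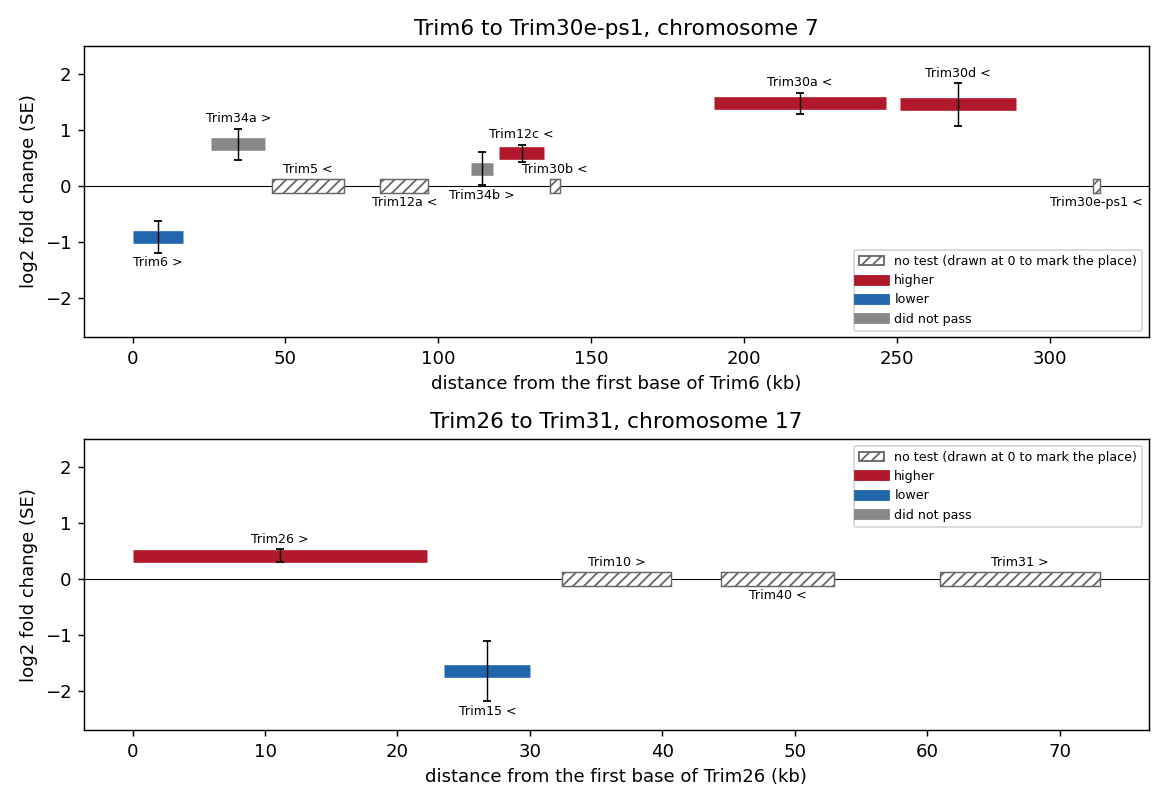
Log2 fold change (vertical axis, with SE) of the TRIM genes in the clusters on chromosome 7 (top) and chromosome 17 (bottom), each bar spanning its gene in kb from the first base of the cluster; arrowheads give the strand, and hatched bars are genes with no test, drawn at 0 only to mark their place. Trim6 at one end of the upper cluster fell while Trim12c, Trim30a and Trim30d rose, and in the lower cluster Trim26 rose beside Trim15, which fell.

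Promoters were read for the interferon-stimulated response element (ISRE), the site through which interferon signals reach many of their target genes. The risers share a direction because they were picked by it. The windows run from 250 bases before to 50 after the start site (RefSeq, GRCm38.p6), and the motif searched was GAAA, any 2 bases and GAAA, on either strand. Of the 46 members 34 had a window in the table and 7 of these held the motif (20.6%). The 5 sequences printed here are those of the risers that hold the motif, 5′ to 3′ on the gene's own strand, with the motif in capitals (on the opposite strand it reads TTTC, 2 bases and TTTC).
Trim30a, chr7:104465144-104465443, minus strand: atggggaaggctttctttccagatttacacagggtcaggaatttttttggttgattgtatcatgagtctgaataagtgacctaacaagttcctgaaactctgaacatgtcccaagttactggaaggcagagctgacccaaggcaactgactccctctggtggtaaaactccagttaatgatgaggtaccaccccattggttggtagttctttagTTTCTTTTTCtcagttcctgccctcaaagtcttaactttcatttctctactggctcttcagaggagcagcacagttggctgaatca
Trim30d, chr7:104507800-104508099, minus strand: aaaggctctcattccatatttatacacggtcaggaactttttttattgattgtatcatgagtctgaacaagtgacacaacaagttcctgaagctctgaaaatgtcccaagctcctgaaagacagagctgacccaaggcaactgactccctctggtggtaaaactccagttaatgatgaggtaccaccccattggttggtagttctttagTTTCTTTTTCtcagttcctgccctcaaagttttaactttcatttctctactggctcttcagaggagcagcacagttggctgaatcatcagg
Trim12c, chr7:104353300-104353599, minus strand: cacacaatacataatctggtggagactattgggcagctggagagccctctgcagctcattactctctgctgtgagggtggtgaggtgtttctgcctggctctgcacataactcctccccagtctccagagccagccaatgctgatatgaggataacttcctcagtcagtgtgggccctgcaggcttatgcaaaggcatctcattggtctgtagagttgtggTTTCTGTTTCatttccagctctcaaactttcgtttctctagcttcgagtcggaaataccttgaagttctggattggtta
Trim21, chr7:102565433-102565732, minus strand: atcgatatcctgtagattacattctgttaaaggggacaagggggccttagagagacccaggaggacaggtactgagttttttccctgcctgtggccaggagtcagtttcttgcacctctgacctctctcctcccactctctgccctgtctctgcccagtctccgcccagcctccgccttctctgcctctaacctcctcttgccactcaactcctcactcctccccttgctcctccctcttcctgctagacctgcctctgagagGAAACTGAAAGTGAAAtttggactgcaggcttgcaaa
Trim26, chr17:36836896-36837195, plus strand: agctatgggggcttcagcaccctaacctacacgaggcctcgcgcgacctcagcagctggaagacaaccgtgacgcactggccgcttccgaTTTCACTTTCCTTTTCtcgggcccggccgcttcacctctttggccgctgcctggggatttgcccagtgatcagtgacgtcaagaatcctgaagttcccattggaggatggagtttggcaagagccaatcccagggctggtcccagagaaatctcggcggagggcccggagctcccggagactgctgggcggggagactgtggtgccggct

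The motif began 36 bases before the start site in Trim30a, 41 before it in Trim30d and 29 before it in Trim12c. A second, inner start site of Trim30a has a window of its own, with a match beginning 2 bases after that start. In Trim21 a pair of overlapping matches began 13 and 19 bases after the start site, and in Trim26 a pair began 160 and 154 bases before it. The windows of Trim30a and Trim30d are near copies, with 90.8% identity over 305 alignment columns, so they do not count as independent. Of the 10 risers 6 had a window and 5 of these held the motif, the sixth being Trim47. A gene was taken to hold the motif if any of its windows did. Among the 8 that fell, 5 had a window and Trim2 held the motif. The match of Trim2 was only in the window of an inner start site, 28 bases after that start, and not at the start of its counted transcript. Among the 24 tested members that did not pass, 19 had a window and Trim34a held the motif. Of all 27025 genes with promoters in RefSeq's table, 3.99% held it, and among the 11240 tested genes with a window 3.77% did. The share was 6.39% of genes called higher and 2.79% of genes called lower. The motif TTCNNNGAA, bound by STAT dimers, was in 0 of the 6 risers, 1 of 5 that fell and 2 of 19 that did not pass, against 9.55% of the table. A match here is a description of letters in the reference genome of another strain, C57BL/6J, and not evidence of binding.

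The second group holds members known from interferon responses and the sensing of foreign RNA, DNA and antibody-coated virus. Of these 8 members 4 rose, 0 fell and 4 did not pass, with a median log2 fold change of 0.31. The groups were drawn with earlier results of these data known. Trim6, described above in interferon signalling, fell but is counted with the chromosome 7 cluster, as is Trim30a, which rose. Over all tested genes 15.7% rose, 16.5% fell and the median was -0.01. Trim21, the cytosolic antibody receptor (chromosome 7, 102557920 to 102565482), was at 11.9, 12.0, 12.4 and 9.89 CPM with IgG. With anti-LIF it was at 28.2, 16.3, 22.6 and 18.7 CPM, every library above the IgG range. It rose 1.85-fold (0.89 ± 0.18 SE, adjusted p = 0.0082), and by 0.73 without library anti-LIF-227. Trim14, an adaptor at the mitochondrial antiviral protein MAVS (chromosome 4, 46505072 to 46536141), went from 33.3, 31.3, 40.2 and 27.6 CPM to 77.5, 46.8, 64.3 and 53.5 CPM. The arms did not overlap and the rise was 1.83-fold (0.87 ± 0.17 SE, adjusted p = 0.00807). Exons of Nans, on the opposite strand, cover 31.3% of the exonic bases of Trim14 in GENCODE M21, although the spans the count table gives for both genes do not overlap, and no source used here gives the strand setting of the counting. Nans itself rose 1.17-fold (adjusted p = 0.0479).

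Trim65, a ligase for the RNA sensor MDA5 (chromosome 11, 116124708 to 116131128), had 12.6, 13.4, 13.8 and 11.6 CPM with IgG and 23.0, 22.3, 19.5 and 18.9 CPM with anti-LIF. The libraries of each arm lay close together and far from the other arm, and the rise was 1.63-fold (0.70 ± 0.11 SE, adjusted p = 0.00469). Trim8, which has no SPRY domain and acts on NF-kB and on STAT signalling through SOCS1 and PIAS3 (chromosome 19, 46501648 to 46516455), was far more abundant. It went from 128, 98.8, 101 and 124 CPM to 185, 154, 149 and 144 CPM, a 1.40-fold rise (0.48 ± 0.12 SE, adjusted p = 0.0177). Trim8 did not pass without IgG-343 (0.42) or when libraries were scaled by size alone (0.31), a scaling that shifts the median of all genes to -0.164, nor by limma-trend on log2(FPKM + 1) or log2(FPKM + 0.1) (0.34 and 0.35 on those scales).

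Trim25, the ligase best known for activating the RNA sensor RIG-I, did not rise with these members. Its level was 154, 299, 252 and 241 CPM with IgG and 202, 160, 142 and 183 CPM with anti-LIF. The arms overlapped through IgG-203, the lowest of its arm (-0.46 ± 0.20 SE, adjusted p = 0.102). Without that library Trim25 passed downward at -0.62 (adjusted p = 0.0191). With any other library left out it did not pass (-0.55 to -0.33, adjusted p of 0.0862 to 0.25). Trim56, which acts on the DNA-sensing adaptor STING, stood at 34.8, 27.6, 25.1 and 27.2 CPM against 33.3, 30.6, 31.0 and 32.3 CPM (0.15 ± 0.11 SE, adjusted p = 0.322). Trim35 and Trim68 were at -0.11 ± 0.08 and 0.05 ± 0.15 (adjusted p = 0.319 and 0.808).

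The genes around these ligases were read from a list of 35 interferon-signalling genes, all tested. Of them 24 rose, 0 fell and 11 did not pass, with a median log2 fold change of 0.57. Over all tested genes 15.7% rose, 16.5% fell and the median was -0.01. The list was chosen with earlier results of these data known. The 3 with the lowest p were Mb21d1, Uba7 and Ikbke (adjusted p = 0.00235, 0.00295 and 0.00418). Mb21d1, the DNA sensor cGAS, had 9.52, 8.51, 9.22 and 8.65 CPM with IgG and 20.0, 18.9, 24.2 and 18.3 CPM with anti-LIF, a 2.27-fold rise. Uba7, the activating enzyme for the ubiquitin-like modifier ISG15, went from 34.1, 26.7, 31.5 and 23.1 CPM to 81.0, 57.0, 62.7 and 65.5 CPM (2.31-fold). Ikbke, a kinase that acts beside Tbk1 on IRF proteins, went from 86.3, 49.97, 62.4 and 62.9 CPM to 216, 167, 137 and 139 CPM (2.52-fold). In each of these genes every anti-LIF library was above every IgG library.

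Irf7, which amplifies interferon production, had 12.3, 4.83, 9.57 and 12.1 CPM against 49.0, 25.7, 23.9 and 32.0 CPM and rose 3.37-fold (adjusted p = 0.00658). Ddx58, which encodes RIG-I, the substrate of Trim25, had 29.4, 16.8, 21.0 and 21.4 CPM against 79.3, 39.0, 49.2 and 48.1 CPM and rose 2.43-fold (adjusted p = 0.00676). Isg15, whose product Uba7 activates, was at a low level throughout, with 2.87, 2.03, 2.63 and 4.76 CPM against 6.83, 6.21, 6.06 and 5.98 CPM (2.04-fold, adjusted p = 0.0172). The arms did not overlap in any of these. Tbk1, the kinase below the sensors, had 68.9, 81.8, 79.3 and 77.8 CPM against 110, 86.0, 93.5 and 90.3 CPM. It rose 1.23-fold (adjusted p = 0.0412), but not without any 1 of IgG-203, IgG-343, IgG-345 or IgG-393 or anti-LIF-227, anti-LIF-354 or anti-LIF-391 (0.23 to 0.33). Mavs, the adaptor to which Trim14 binds, had 66.6, 70.5, 65.4 and 70.7 CPM against 85.3, 77.4, 90.0 and 71.3 CPM and did not pass (0.25 ± 0.09 SE, adjusted p = 0.0588). The summed level of the list was 2019 to 2266 CPM with IgG and 2687 to 3702 CPM with anti-LIF, highest in library anti-LIF-227, and the myeloid sum was higher in the same anti-LIF libraries.

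The third group is the TRIM genes of the MHC region on chromosome 17, to which Trim27 of chromosome 13 was added for its human position. Of 6 members 4 were tested, 1 rose and 2 fell, where 15.7% of all tested genes rose and 16.5% fell. Trim26, a regulator of IRF3 turnover (chromosome 17, 36837146 to 36859398), had 74.7, 74.7, 76.4 and 70.4 CPM with IgG and 124, 85.1, 95.2 and 91.0 CPM with anti-LIF. The arms were apart and library anti-LIF-227 was the highest. It rose 1.34-fold (0.42 ± 0.12 SE, adjusted p = 0.0269), although not without any 1 of IgG-203, IgG-343, IgG-345 and IgG-393 or anti-LIF-354 (0.39 to 0.44). Trim15 lies on the other strand (chromosome 17, 36860691 to 36867187), and its transcript ends 1.3 kb beyond Trim26. Trim15, which encodes a component of focal adhesions, had the lowest log2 fold change of the 42 tested members. It went from 5.33, 5.22, 8.61 and 7.62 CPM to 0.702, 5.14, 1.17 and 1.61 CPM, so that anti-LIF-310 reached nearly to the IgG range. It fell 3.11-fold (-1.64 ± 0.54 SE, adjusted p = 0.0466), a call kept without anti-LIF-310 and lost without each of the other 7, IgG-203, IgG-343, IgG-345 and IgG-393 and anti-LIF-227, anti-LIF-354 and anti-LIF-391 (-1.74 to -1.35).

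Trim39, a ligase that stabilises the apoptosis regulator MOAP1 (chromosome 17, 36258873 to 36272004), went from 39.8, 42.8, 35.5 and 38.2 CPM to 29.4, 30.1, 31.9 and 34.8 CPM. The difference was small, 1.24-fold (-0.31 ± 0.09 SE, adjusted p = 0.031), and was not called without IgG-203, IgG-343 or IgG-393 or anti-LIF-227, anti-LIF-310 or anti-LIF-354 (-0.32 to -0.26). Trim27, a transcriptional repressor and ligase, had 49.2, 35.0, 39.5 and 45.6 CPM against 53.3, 55.5, 52.4 and 47.4 CPM. IgG-203 lay inside the anti-LIF range (0.30 ± 0.12 SE, adjusted p = 0.0729). Without it Trim27 passed at 0.38 (adjusted p = 0.0391), but not with any other library left out. Trim31, a ligase of intestinal epithelium, and Trim40 were too low to test. Trim31 had 26 counts with IgG and 78 with anti-LIF, and Trim40 had 30 and 50, with the highest levels of both in anti-LIF-310 and anti-LIF-354.

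The bromodomain members are chromatin proteins: Trim28 (KAP1) silences transposable elements through zinc-finger repressors, Trim24 is a coregulator that also targets p53, and Trim33 acts on SMAD signalling. Of the 4 members 0 rose and 1 fell, against 15.7% and 16.5% of all tested genes. Trim28 was the most abundant TRIM transcript per length, at 55.2 ± 6.92 FPKM (reads scaled by transcript length and library size, mean ± SD, n = 4) with IgG and 51.5 ± 6.65 with anti-LIF. In TMM-scaled CPM it stood at 237, 197, 200 and 220 against 195, 231, 220 and 223, with the arms overlapping over nearly their whole range (0.03 ± 0.09 SE, adjusted p = 0.848). Trim33 went from 94.7, 93.8, 82.3 and 97.9 CPM to 72.2, 76.7, 80.1 and 73.8 CPM. The fall was 1.22-fold (-0.28 ± 0.08 SE, adjusted p = 0.0246) and was not called without IgG-203, IgG-343 or IgG-393 or anti-LIF-227, anti-LIF-310 or anti-LIF-391 (-0.28 to -0.25). Trim24 showed a wide IgG arm of 32.4, 59.6, 45.7 and 37.7 CPM against a narrow anti-LIF arm of 31.0, 31.7, 33.2 and 32.5 CPM. Only IgG-203 overlapped (-0.45 ± 0.17 SE, adjusted p = 0.0728). Without it Trim24 passed at -0.57 (adjusted p = 0.0269), but not with any other library left out. Trim66 was at under 1.6 CPM in every library.

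The NHL-repeat members gave the firmest fall. Trim2, a ligase for neurofilament and the pro-apoptotic protein BIM (chromosome 3, 84160439 to 84259779), had 20.2, 32.2, 23.6 and 16.5 CPM with IgG and 7.54, 9.62, 8.90 and 12.5 CPM with anti-LIF. The lowest IgG library was above the highest anti-LIF library. It fell 2.4-fold, from 23.1 ± 6.70 to 9.63 ± 2.09 CPM (-1.26 ± 0.23 SE, adjusted p = 0.00628). Trim3, close to Trim2 in sequence, went from 55.9, 68.0, 64.0 and 71.3 CPM to 51.2, 48.9, 55.3 and 54.4 CPM. It fell 1.24-fold (-0.30 ± 0.09 SE, adjusted p = 0.0337), a call that was kept without IgG-203 and lost without each of the other 7, IgG-343, IgG-345 and IgG-393 and anti-LIF-227, anti-LIF-310, anti-LIF-354 and anti-LIF-391 (-0.32 to -0.26). Trim32, a ligase mutated in a muscular dystrophy, had 22.2, 18.4, 15.0 and 24.2 CPM against 19.9, 19.0, 21.2 and 19.8 CPM, with means that differed by less than the spread in either arm (0.00 ± 0.15 SE, adjusted p = 0.999). In the same libraries the epithelial sum was lower with anti-LIF, as was Epcam itself (given with the cell markers above).

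Of the 3 members grouped here for their lack of a RING domain, 1 fell and 0 rose, against 16.5% and 15.7% of all tested genes. Trim16, a ligase of keratinocyte differentiation and of damaged lysosomes (chromosome 11, 62820253 to 62842948), went from 37.3, 31.1, 29.8 and 50.5 CPM to 18.8, 24.3, 22.6 and 26.9 CPM. The arms were apart and it fell 1.61-fold (-0.68 ± 0.18 SE, adjusted p = 0.0231), but not without anti-LIF-227 or anti-LIF-354 (-0.67 to -0.59). Trim29, a marker of basal and squamous epithelium, varied within both arms, with 5.79, 15.0, 13.8 and 6.97 CPM against 3.00, 8.88, 4.70 and 6.58 CPM (-0.85 ± 0.40 SE, adjusted p = 0.137). Trim44, a stabiliser of other TRIM proteins and 1 of the 5 most abundant members per length, had 177, 180, 174 and 155 CPM against 131, 153, 141 and 157 CPM (-0.24 ± 0.09 SE, adjusted p = 0.0645).

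Among members with other C-terminal parts, 1 of 5 fell and 0 rose, against 16.5% and 15.7% of all tested genes. The one was Trim13, a membrane-anchored ligase of the endoplasmic reticulum (chromosome 14, 61598226 to 61605945), with 6.94, 10.2, 8.26 and 7.73 CPM against 5.43, 4.81, 4.88 and 6.11 CPM. It fell 1.56-fold (-0.64 ± 0.17 SE, adjusted p = 0.0198), but not without IgG-343 or anti-LIF-354 (-0.60 to -0.53). Its transcripts share 14.2% of their 50-base stretches with the gene Gm9359. Trim59, also anchored in membranes, had 21.6, 19.8, 16.6 and 22.2 CPM against 10.4, 16.2, 20.0 and 16.9 CPM (-0.34 ± 0.19 SE, adjusted p = 0.209). Trim37, a peroxisomal and centrosomal ligase, had 26.9, 22.5, 26.9 and 23.3 CPM against 23.6, 34.5, 31.4 and 27.5 CPM (0.23 ± 0.13 SE, adjusted p = 0.202). Both overlapped between the arms. Trim23 and Trim45 had log2 fold changes of -0.58 and -0.50 (adjusted p = 0.0745 and 0.0742). Without IgG-203 Trim23 passed at -0.72 (adjusted p = 0.0351), but not with any other library left out.

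The COS-box members bind microtubules or muscle fibres, and 1 of the 3 tested rose, against 15.7% of all tested genes. Trim36, a microtubule-associated ligase (chromosome 18, 46165300 to 46198818), went from 5.10, 4.89, 6.33 and 5.51 CPM to 8.88, 8.81, 10.6 and 8.19 CPM. It was the only riser in which library anti-LIF-227 was not the highest of all 8. The rise was 1.67-fold (0.74 ± 0.15 SE, adjusted p = 0.00815) and was 0.76 without library anti-LIF-227. Trim46, which organises microtubules in axons, had 21.6, 13.2, 10.5 and 18.4 CPM against 7.34, 11.3, 8.96 and 11.2 CPM (-0.71 ± 0.25 SE, adjusted p = 0.0533), and passed without IgG-345 (-0.87, adjusted p = 0.0269), by DESeq2 (-0.71, adjusted p = 0.0246) and by library size alone (-0.87, adjusted p = 0.0386). Trim55, a muscle protein at a low level here, had 0.344, 0.330, 0.608 and 0.486 CPM against 0.192, 2.07, 0.865 and 1.48 CPM (1.35 ± 0.59 SE, adjusted p = 0.11). Its lowest level was in anti-LIF-227. Without that library Trim55 passed at 1.71 (adjusted p = 0.0158), but not with any other library left out. Trim67 was too low for the main test, with 73 counts in IgG libraries together and 7 in anti-LIF libraries. Its IgG libraries held 0.574, 1.54, 1.52 and 0.270 CPM and its anti-LIF libraries 0.0639, 0, 0.247 and 0.134 CPM, all below the IgG range. With no filter on low counts it was called lower (-3.03, adjusted p = 0.023), and with 1 library left out it was tested and called lower in 5 of 8 cases (-3.74 to -2.64).

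Of the 6 remaining SPRY members 1 rose, against 15.7% of all tested genes. Trim47 (chromosome 11, 116105750 to 116110235), a ligase first described in brain tumours, had 32.5, 21.6, 25.7 and 32.0 CPM with IgG and 64.2, 44.2, 46.0 and 45.8 CPM with anti-LIF. The arms were apart, with library anti-LIF-227 well above the others, and the rise was 1.79-fold (0.84 ± 0.17 SE, adjusted p = 0.00824), or 0.70 on the log2 scale without library anti-LIF-227. Trim47 lies 14.5 kb from Trim65 on the same strand. In GENCODE M21 exons assigned to Trim65 cover 8.23% of the exonic bases of Trim47, although the spans the count table gives for both genes do not overlap. Trim41, a ligase of protein kinase C, had 68.0, 78.0, 73.3 and 67.8 CPM against 111, 75.2, 91.7 and 82.6 CPM (0.33 ± 0.12 SE, adjusted p = 0.0679). It passed without anti-LIF-310 (0.42, adjusted p = 0.0326), but not with any other library left out. Trim11, Trim62, Trim7 and Trim17 lay between -0.19 and 0.37 and did not pass. Trim7, 20.1 kb from Trim41, stood at -0.19.

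The 3 TRIM genes with other symbols gave 1 rise, 1 fall and 1 gene that did not pass. The shares over all tested genes were 15.7% higher and 16.5% lower. Pml, the organiser of nuclear bodies and itself interferon-inducible, went from 43.7, 29.9, 37.7 and 43.4 CPM to 84.6, 54.4, 60.9 and 55.3 CPM. It rose 1.65-fold (0.72 ± 0.17 SE, adjusted p = 0.0152) with no overlap between the arms. Mid2, a COS-box microtubule protein, went from 14.2, 13.1, 12.5 and 14.9 CPM to 6.90, 9.08, 9.08 and 9.60 CPM and fell 1.58-fold (-0.66 ± 0.14 SE, adjusted p = 0.00955). Its paralogue Mid1 varied widely in both arms, with 28.4, 10.1, 16.97 and 14.1 CPM against 28.4, 7.08, 13.7 and 15.6 CPM (-0.10 ± 0.43 SE, adjusted p = 0.876).

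Levels can be compared between genes only per transcript length. By mean FPKM the 5 highest members were Trim28, Trim8, Trim25, Trim44 and Trim26, 12 members were at 10 FPKM or more and 10 were under 1. With anti-LIF, Trim8 stood at 37.0 ± 2.02 FPKM and Trim25 at 23.4 ± 2.53, whereas with IgG Trim25 was at 35.2 ± 8.22 and Trim8 at 29.2 ± 5.00. So Trim25 ranked second of the family with IgG and Trim8 with anti-LIF, although their ranges over libraries were not compared by a test. Trim30a stood at 8.44 ± 1.52 FPKM with IgG and at 21.2 ± 4.27 with anti-LIF, against 19.4 ± 0.68 and 23.5 ± 2.48 for Trim26. The FPKM of 13 of the 46 members refer to another transcript of the gene than the counts do.

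**Figure D4:**
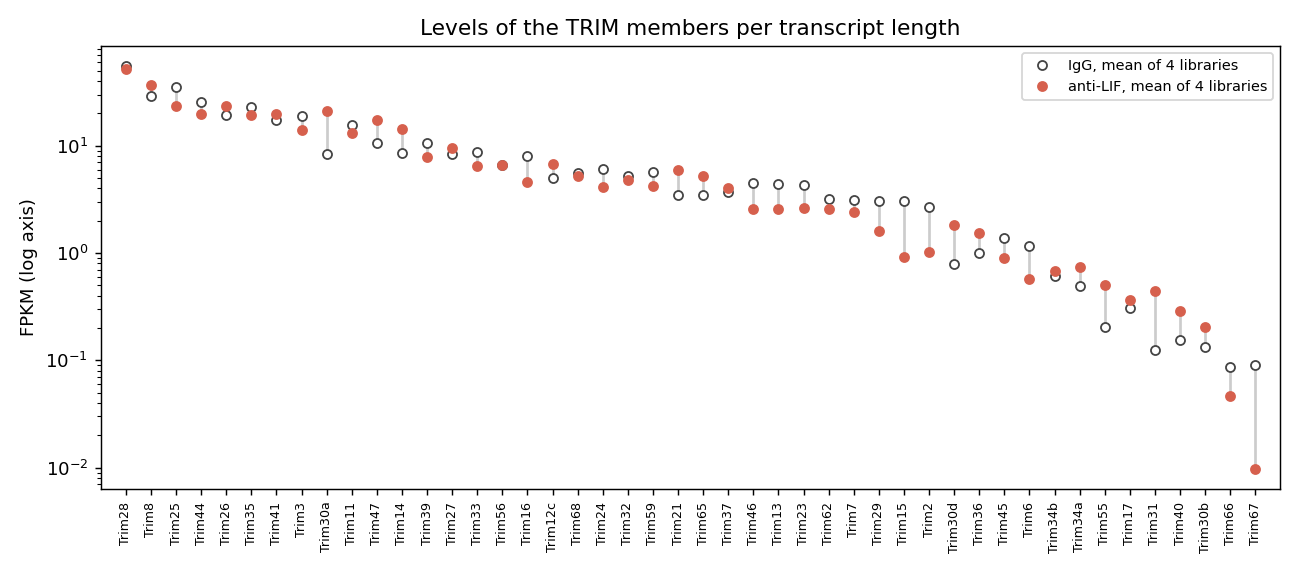
Mean FPKM of each of the 46 TRIM members in the IgG arm (open circles) and the anti-LIF arm (filled circles), n = 4 libraries each, on a log axis and ordered by the mean over all 8 libraries. Trim28 is the highest in both arms, and at Trim67, the lowest of all, the IgG arm is above the anti-LIF arm.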

How the data were processed

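Per the labels, polyA RNA of sorted EpCAM+ cells was sequenced from 4 IgG and 4 anti-LIF mice. Per the submitters' processing notes, reads were checked with FastQC 0.11.2, aligned to mm10 with STAR 2.4.0k and counted with HOMER, and edgeR 3.6.8 is named. Per the file headers, the authors counted exonic reads, keeping 1 transcript per gene, and deposited raw counts and FPKM (scaled by length and library total). No source used here gives the strand setting. There were 0 unused sample columns.

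R 4.3.3 was used: edgeR 4.0.16 for the main test of the deposited counts (filterByExpr, TMM, quasi-likelihood test), limma 3.58.1 and DESeq2 1.42.0. On simulated counts the main test recovered 10.4% of 1.5-fold, 58.2% of 2-fold and 92.4% of 4-fold changes. The simulated counts gave 112 calls against 4731 in the deposited counts, so these shares may not carry over. The SE is the absolute log2 fold change over the square root of F. CPM use TMM library sizes. Members, role groups and lists were chosen with earlier results of these data known, so lists are given as counts and medians. Values are printed for members past an adjusted p of 0.05, the 5 with the highest FPKM, 16 members chosen by role (Trim5, 1 of them, had 12 counts), Pml, Mid1 and Mid2, and signalling genes with the lowest p or chosen by role. Other members are named for their role group. Some items of the study are not reported here. Alternatives were other scalings, DESeq2, limma-voom, other filters, limma-trend on log2(FPKM + 1) or log2(FPKM + 0.1), and each library left out. Promoters are RefSeq's. Shared 50-base stretches and exons are from GENCODE M21 on GRCm38, the assembly of mm10.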

Additional observations from a re-analysis of the deposited data

Results flagged for a closer look

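In 126 groups of 4 libraries examined, 5 held a library far from the other 3. Chance gives about 1 in 20, so this number is not above what chance gives. The groups share the same libraries and are not independent. Library anti-LIF-227 was apart in 3 of the 5. It had 64.2 CPM of Trim47 against 44.2 to 46.0 in the other anti-LIF libraries, 194 CPM of Epcam against 326 to 353, and 55548 CPM over the myeloid markers against 29423 to 33203. Trim62 was low in anti-LIF-310, at 9.75 CPM against 11.1 to 11.3 in the rest of its arm. Adgre1, a macrophage marker, was high in IgG-345, at 186 CPM against 146 to 152. All 10 TRIM members that rose still passed without library anti-LIF-227.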

How the results depend on the processing

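No paired analysis was possible because the arms share no mouse numbers. No called member changed direction under the 17 alternatives. The cause of a lost or gained call was not tested, except that leaving out a library also leaves fewer samples. The count of members called higher, 10 as reported, was 7 to 11 with a library left out and 9 to 12 under the other alternatives. The count called lower, 8 as reported, was 2 to 7 with a library left out (of the 8 themselves 2 to 5 passed), 13 by library size alone and 13 by limma-trend on log2(FPKM + 1), where the median of all genes moved to -0.164 and -0.100, and 8 to 12 under the other alternatives. By library size alone 1430 of all tested genes were called higher and 3567 lower, against 2303 and 2428 with TMM, and the members split 9 to 13. By limma-trend the split of all genes was 1551 to 3402 with log2(FPKM + 1) and 1535 to 3344 with log2(FPKM + 0.1), where the members split 9 to 12. With all 8 libraries, members gained beyond those reported were, as lower, Trim23, Trim24, Trim25, Trim44 and Trim46 by library size alone, Trim23, Trim24, Trim25 and Trim44 by both limma-trend fits, Trim45 with log2(FPKM + 1), Trim23, Trim44 and Trim46 by DESeq2, and Trim67 without the filter or with the summed-count filter. DESeq2 gained Trim34a and Trim41 as higher. The SE of low members such as Trim17 and Trim66 was 0.74 and 0.55 (log2). Intervals cover the spread between these mice only.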
